A study of Arabidopsis thaliana with 12 samples.

Results

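The comparison described here sets *RVE8:GR* seedlings treated with dexamethasone (DEX) against *rve8* seedlings treated with DEX, with 3 libraries a side, 6 of the 12 libraries of the series. Members were taken from the labelled line and treatment of each library and not from any measured value. *rve8* plants carry the *rve8-1* mutation in *RVE8*, and *RVE8:GR* plants carry the same mutation plus *RVE8::RVE8:GR*, a genomic *RVE8* fragment with its own promoter that encodes RVE8 fused to the hormone-binding domain of the rat glucocorticoid receptor. Both groups share the mutation and the steroid, and differ by the transgene, whose product is held in the cytoplasm until the steroid binds it. *RVE8:GR* is a homozygous transformant with the transgene at 1 site, made in plants that also carry *CCR2::LUC+*, so that effects of the insertion and of the fusion protein cannot be told apart by this comparison alone. Seedlings were *Arabidopsis thaliana*, 7 days old, grown on medium with 3% sucrose in cycles of 12 hr light and 12 hr dark, and about 30 were pooled for each library. They were treated at ZT4, 4 hr after lights on, and harvested 4 hr later at ZT8. The labels give the DEX dose as 30 mM and the study's methods give the same figure in µM. The remaining 6 libraries, of the same lines after mock treatment, enter only where the line difference without steroid is set beside the line difference with it. Nothing in the labels says that replicates came from separate sowings, so p-values measure the spread between these samples.

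RVE8 is a MYB-like transcription factor related to CCA1 and LHY, the repressors that anchor the plant circadian clock at dawn. It binds the evening element (EE), a short promoter sequence found in many genes whose transcripts peak toward dusk, and promotes expression in the afternoon. CCA1 and LHY bind the same element and repress the same kind of gene. Evening genes such as *PRR5* and *TOC1* in turn repress *CCA1*, *LHY* and other morning genes, and the LNK proteins act as transcriptional partners of RVE8.

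The EE is printed here at sites upstream of genes on which the results turn, because its letters were more frequent upstream of the genes higher in *RVE8:GR* + DEX than upstream of those that were lower. Each line reads 5′ to 3′ on the strand given and covers positions of the TAIR10.1 assembly, with the 9 bases of the long EE, AAAATATCT, in capitals and 10 flanking bases on each side. The short EE, AAATATCT, is contained in the long one. The first 8 genes were higher in *RVE8:GR* + DEX and the last, *PRR9* and *COL2*, were lower.
FKF1, chr1:25508443-25508471, reverse strand: atattccgagAAAATATCTagcctactca
DJC76, chr5:7828623-7828651, reverse strand: cgtcccaaatAAAATATCTttccaagaga
COR27, chr5:17199931-17199959, forward strand: cttcaactgcAAAATATCTtccaccgtcc
AT4G33980, chr4:16285180-16285208, reverse strand: gctccaaaaaAAAATATCTggctgatatt
GRP7, chr2:9266615-9266643, forward strand: gtggagcaaaAAAATATCTcatatgtcaa
DRM2, chr2:14310439-14310467, forward strand: tttgacccacAAAATATCTagagaaatac
COL9, chr3:2441154-2441182, reverse strand: acaaaagccaAAAATATCTtcttcttctt
GWD1, chr1:3590914-3590942, reverse strand: aagataaacaAAAATATCTtctgcaattc
PRR9, chr2:19232623-19232651, reverse strand: cacaaccacgAAAATATCTtctcagagaa
COL2, chr3:489638-489666, reverse strand: ataagttaccAAAATATCTtcttgttact
The sites lie 275 bp (*FKF1*), 98 bp (*DJC76*), 228 bp (*COR27*), 243 bp (AT4G33980), 308 bp (*GRP7*), 162 bp (*DRM2*), 1321 bp (*COL9*), 880 bp (*GWD1*), 232 bp (*PRR9*) and 1023 bp (*COL2*) from the start codon. Those of *DJC76*, *DRM2* and *PRR9* fall within the annotated span of the 5′ UTR. That of AT4G33980 is upstream of the counted gene model but inside the annotated gene, within the first exon of a longer transcript, and that of *GWD1* spans the annotated transcript start. The other sites printed are upstream of the annotated gene. *FKF1* has 6 sites within 1500 bp, 3 of the long form, *COR27* has 4, 2 of them long, and *GRP7* and AT4G33980 have 4 each, all long. *PRR9* and *COL2* have 1 each.

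The 6 libraries held 17762113 to 21713130 counts, and 3 counts correspond to 0.138 to 0.169 CPM, the count scaled to library size, with TMM factors of 0.959 to 1.047 over all 12 libraries. A gene was tested if it reached 1 CPM in at least 3 libraries, which 19961 of 26245 gene models did, and was called at an adjusted p under 0.01. Errors of log2 fold changes are standard errors with n = 3 libraries a group. Flower markers (*AG*, *AP3*, *PI*) were below the filter, and the root and photosynthetic markers of whole seedlings were present. The summed level of the 4 *RBCS* genes, a marker of green tissue, was 51714 to 60718 CPM in *rve8* + DEX and 45647 to 48444 CPM in *RVE8:GR* + DEX, and none of the 4 was called. The 10 most abundant gene models took 8.72 to 9.62% of counts in *rve8* + DEX and 7.83 to 8.14% in *RVE8:GR* + DEX. The part of these differences in the results below was not tested. Summed counts of seed storage genes differed most between replicates, from 54.8 to 497 CPM in *rve8* + DEX, and none of the 3 tested was called. In bulk seedlings, fewer cells of a type and less RNA per cell cannot be told apart.

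With DEX, 378 genes were higher in *RVE8:GR* than in *rve8* (1.89% of those tested) and 464 were lower (2.32%), together 4.22%. Most differences were small. The median log2 fold change was 0.53 among the higher genes and -0.59 among the lower, 46 and 84 of them differed by at least 2-fold, and 217 and 230 by less than 1.5-fold. The median over all genes tested was 0.01. The 378 higher genes became 219 without *rve8* + DEX replicate 2 and 238 without *RVE8:GR* + DEX replicate 3. In all 842 called genes the groups of 3 did not overlap, against 13.9% of all genes tested in the higher direction and 12.8% in the lower. The mock libraries show where each group lay. In 233 of the 378 higher genes (61.6%) the *RVE8:GR* + DEX libraries were above all 9 others, a pattern held by 3.71% of all genes tested, and in 162 (42.9%) every *RVE8:GR* library, with DEX or mock, was above every *rve8* library, against 1.93%. Among the 464 lower genes it was the *rve8* + DEX libraries that most often stood apart, above all 9 others in 285 (61.4%), against 3.84% of all genes tested. In 184 (39.7%) the *RVE8:GR* + DEX libraries were below all 9 others, against 2.63%. The calls were made from the same DEX libraries, so every called gene already had its 2 DEX groups apart. The shares over all genes tested lack that selection and are no matched baseline for these patterns.

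*RVE8*, the gene that the transgene restores, was higher in every *RVE8:GR* library. It (AT3G09600) had 5.19, 5.52 and 6.31 CPM in *RVE8:GR* + DEX and 1.05, 1.33 and 0.601 CPM in *rve8* + DEX, a 5.75-fold difference (log2 2.52 ± 0.30, adjusted p = 1.8e-05). With mock the values were 9.76, 8.76 and 8.35 and 2.06, 0.606 and 0.712 CPM, so the labels of all 12 libraries fit their line. Reads from the fusion and from the mutated locus are counted together. The reference genes *PP2AA3*, *IPP2*, *ACT2* and *UBQ10* had log2 fold changes between -0.03 and 0.09, and none of the 4 was called.

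Of 23 clock genes, all tested, 8 were higher in *RVE8:GR* + DEX and 8 lower, against 1.89% and 2.32% of all genes. This list and those below were chosen with earlier results of these data known. The higher genes besides *RVE8* are genes of the afternoon and evening, and the lower ones are mostly genes of the morning. *FKF1*, a blue-light receptor that promotes flowering in long days, showed the largest increase after *RVE8*. It had 20.1, 23.9 and 21.4 CPM in *RVE8:GR* + DEX and 6.99, 7.0 and 7.01 CPM in *rve8* + DEX, with no overlap and little spread (3.12-fold, adjusted p = 1.4e-08). *PRR3*, a pseudo-response regulator, had 16.6, 19.0 and 16.2 CPM against 10.3, 7.87 and 7.31 CPM (2.03-fold, adjusted p = 2.2e-05), and no EE in its 1500 bp. *PRR5* (2.97-fold), *LUX* (1.58-fold), *TOC1* (1.44-fold), *GI* (1.4-fold) and *ELF4* (1.37-fold) completed the higher group, and each has an EE. The call of *ELF4* was lost without either of *RVE8:GR* + DEX replicates 2 and 3 or *rve8* + DEX replicates 1 and 2 (adjusted p 0.0203 to 0.0415). *BOA*, a relative of *LUX*, had 3.09, 2.6 and 2.24 CPM against 2.59, 1.74 and 1.35 CPM and was not called (adjusted p = 0.32).

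The 4 *LNK* genes, partners of RVE8, were all lower in *RVE8:GR* + DEX, and none has an EE. *LNK3* had 8.05, 7.47 and 6.36 CPM against 17.3, 19.6 and 21.1 CPM in *rve8* + DEX, 2.64-fold lower (adjusted p = 1.5e-07). *LNK4* had 22.1, 20.4 and 23.8 CPM against 44.7, 45.1 and 39.3 CPM (1.95-fold lower, adjusted p = 1.9e-07), *LNK2* was 1.9-fold lower and *LNK1* 1.42-fold lower. The *rve8* + DEX libraries were above the other 9 in *LNK1*, *LNK2* and *LNK3*. Among the other lower genes, *CCA1* had 16.7, 16.1 and 15.6 CPM against 45.7, 62.5 and 50.3 CPM (3.27-fold lower) and *LHY* was 4.38-fold lower. Both were also lower with mock. *RVE4*, a close relative of *RVE8*, had 27.9, 27.8 and 31.7 CPM against 42.1, 51.4 and 44.2 CPM (1.58-fold lower, adjusted p = 1.3e-05). Its relative AT5G52660, listed as *RVE6* but without a symbol in the annotation used, was not called (log2 -0.35 ± 0.12, adjusted p = 0.08). *PRR9*, which shares 33.7% of its 50-base stretches with AT2G46670 so that its reads may be split between them, had 7.16, 6.91 and 6.13 CPM against 15.3, 19.3 and 17.8 CPM (2.58-fold lower). *ELF3*, *ZTL*, *LKP2*, *CHE* and *PRR7* had log2 fold changes between -0.18 and 0.20 and were not called.

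**Figure D1:**
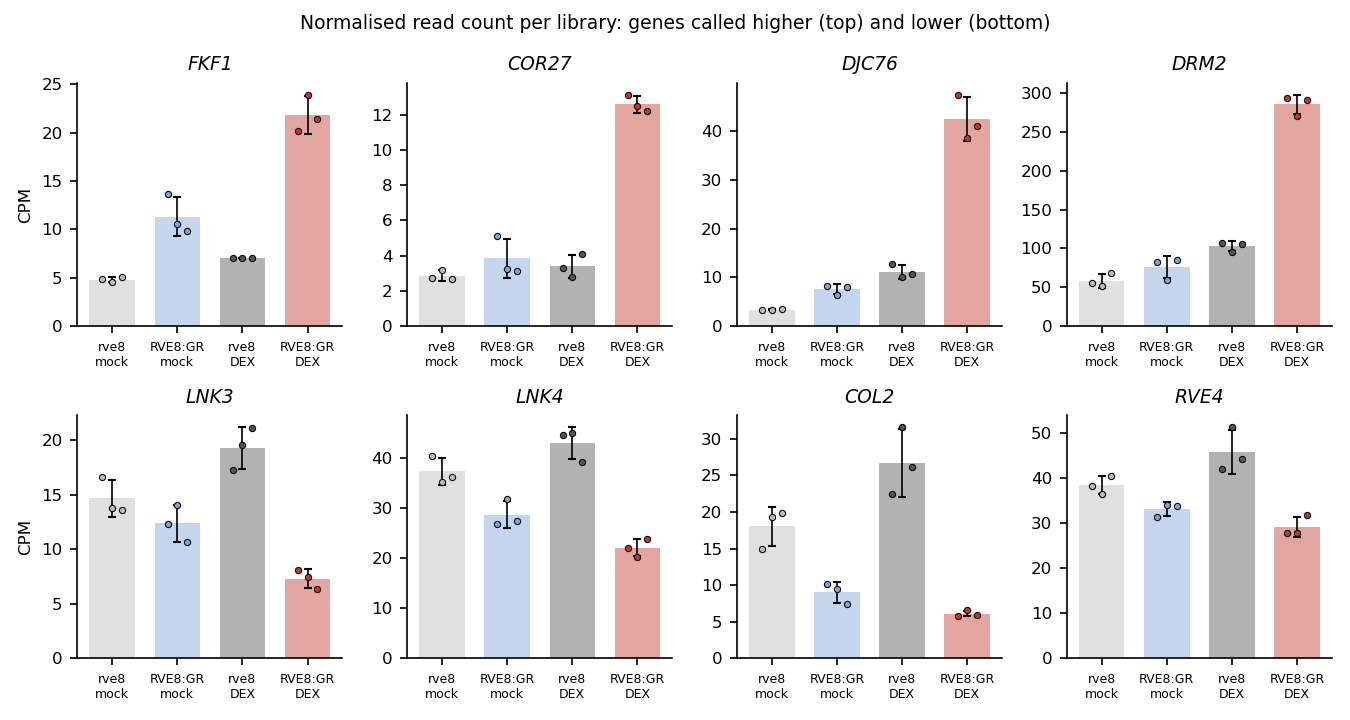
Normalised read count (CPM) of 8 genes in the 12 libraries. Bars are means of 3 libraries, error bars SD and points single libraries. The *RVE8:GR* + DEX libraries are above the *rve8* + DEX libraries for *FKF1*, *COR27*, *DJC76* and *DRM2* and below them for *LNK3*, *LNK4*, *COL2* and *RVE4*.

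Of 7 other *RVE* genes and clock outputs, 3 were higher in *RVE8:GR* + DEX and 1 lower, against 1.89% and 2.32% of all genes. The 3 higher ones each have several EE sites. *COR27*, a cold-induced clock gene of the evening, had 13.2, 12.5 and 12.2 CPM against 3.3, 2.78 and 4.11 CPM (3.69-fold, adjusted p = 2.3e-07). AT4G33980 entered the list as *COR28* and has no symbol in the annotation used. It had 8.94, 8.72 and 8.37 CPM against 3.8, 2.78 and 2.95 CPM (2.73-fold, adjusted p = 8.1e-06). *GRP7* (*CCR2*), an RNA-binding protein and classical clock output, was far more abundant, with 1520.3, 1338 and 1511 CPM against 904, 884 and 939 CPM (1.6-fold, adjusted p = 2.5e-06). Its paralogue *GRP8* was not called (log2 0.10). *RVE1*, a morning factor that promotes auxin synthesis, was 2.33-fold lower, with 3.6, 3.48 and 4.64 CPM against 8.64, 11.0 and 7.66 CPM, while *RVE2* and *RVE7* were not called.

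Of 13 photoperiod and flowering genes tested, 1 was higher and 4 lower, against 1.89% and 2.32% of all genes. *COL2*, a CONSTANS-like gene of the morning, was 4.36-fold lower, with 5.85, 6.54 and 5.96 CPM against 22.4, 31.6 and 26.1 CPM (log2 -2.12 ± 0.15, adjusted p = 1.1e-08). *COL1* had 14.7, 15.1 and 17.43 CPM against 31.3, 33.6 and 30.6 CPM (2.03-fold lower, adjusted p = 3.7e-07), and *CDF1* and *CDF3*, encoding DOF repressors of *CONSTANS*, were also lower (log2 -0.61 and -0.40). *COL9*, encoding a B-box repressor of *CONSTANS*, was 1.85-fold higher, with 27.1, 24.7 and 24.2 CPM against 14.5, 12.7 and 14.0 CPM. *FT* and *TSF* were below the filter.

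Of 20 light signalling and B-box genes, 7 were lower and 1 was higher, against 2.32% and 1.89% of all genes. *BBX16* had 8.0, 7.28 and 6.99 CPM against 22.1, 24.7 and 22.1 CPM (3.08-fold lower, adjusted p = 9.2e-10), and *BBX18* 6.97, 4.5 and 6.31 CPM against 15.2, 15.7 and 14.2 CPM (2.54-fold lower). *HYH*, encoding a bZIP factor that acts with HY5, had 14.5, 13.9 and 12.4 CPM against 29.6, 37.8 and 33.6 CPM (2.47-fold lower, adjusted p = 2.3e-07). *BBX25*, *BBX19*, *SPA1* and *BBX24* made up the rest, with log2 fold changes from -1.14 to -0.37. *PHYA* was 1.25-fold higher, and *HY5*, *PIF4* and *PHYB* were not called.

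Of 23 starch breakdown genes tested, 11 were higher in *RVE8:GR* + DEX and 3 were lower, against 1.89% and 2.32% of all genes. The 3 largest increases were in *BAM5*, *GWD1* and *SEX4*. *GWD1*, the kinase that phosphorylates starch at the start of breakdown, had 402, 397 and 386 CPM against 203, 181 and 179.8 CPM in *rve8* + DEX (2.1-fold, adjusted p = 1.2e-09). *SEX4*, the phosphatase that acts after it, had 39.5, 44.6 and 44.1 CPM against 24.8, 24.6 and 28.3 CPM (1.65-fold). The group as a whole had 1841 to 1938 summed CPM in *RVE8:GR* + DEX and 1334 to 1364 in *rve8* + DEX, which do not overlap. Also higher were *PHS1*, *PHS2*, *DPE1*, *DPE2*, *ISA3*, *PWD*, *AMY3* and *MEX1*, with log2 fold changes from 0.40 to 0.72. All but *MEX1* of these were also higher in *RVE8:GR* with mock, where the summed level was 1808 to 2070 CPM against 1183 to 1247 CPM, and *GWD1* differed by log2 1.07 with mock against 1.07 with DEX. *BAM5*, a beta-amylase, had 6.13, 15.3 and 6.08 CPM against 0.385, 0.752 and 1.05 CPM (12.4-fold, adjusted p = 0.0071), a call lost when any of the 3 *rve8* + DEX libraries was left out (adjusted p up to 0.037), although *RVE8:GR* was also higher with mock (48.1, 26.8 and 32.8 against 4.59, 3.94 and 3.14 CPM). *BAM9*, *BAM1* and *BAM3* were lower (log2 -1.37, -0.40 and -0.36).

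Of 16 starch synthesis genes, 4 were higher and 1 lower, against 1.89% and 2.32% of all genes. *SBE2.1*, a branching enzyme, was 1.42-fold higher, with 72.0, 77.0 and 65.6 CPM against 53.0, 48.1 and 50.6 CPM. *PGM1*, *ISA1* and *ISA2* were higher by log2 0.35, 0.29 and 0.31, and *SS2*, a starch synthase, was lower by 1.24-fold. *GBSS1*, the granule-bound enzyme, had a log2 fold change of -1.01 and was not called (adjusted p = 0.017). With mock 5 genes of the list were higher and none lower, against 1.31% and 0.416% of all genes. The summed level was 1485 to 1556 CPM in *RVE8:GR* + DEX and 1414 to 1518 in *rve8* + DEX, which overlap. With mock it was 1594 to 1811 CPM in *RVE8:GR* and 1337 to 1418 in *rve8*, which do not.

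Of 19 genes induced by darkness and sugar starvation, 8 were higher and none lower, against 1.89% and 2.32% of all genes. The list median was log2 0.66, and 18 of the 19 had a positive fold change. *DIN1* had the largest increase of the list, with 29.4, 35.2 and 33.1 CPM against 7.1, 5.15 and 7.76 CPM (4.86-fold, adjusted p = 0.0016), a call lost without *rve8* + DEX replicate 2 (adjusted p = 0.0101). *DRM2*, a dormancy-associated gene, had 294, 271 and 291 CPM against 108, 95.8 and 106 CPM (2.77-fold, adjusted p = 1.6e-05). *BCAT2*, a branched-chain transaminase, was 2.93-fold higher, with 2.76, 2.41 and 3.44 CPM against 0.825, 0.868 and 1.2 CPM, a call lost when any of the 6 libraries was left out (adjusted p up to 0.0432). *BT2*, *DIN10*, *MCCA*, *TPS11* and *IVD* were also called, with log2 fold changes from 0.42 to 1.03. In *DIN1*, *DRM2* and *BCAT2* all 3 *RVE8:GR* + DEX libraries were above the other 9. The summed level of the list was 1494 to 1702 CPM in *RVE8:GR* + DEX, 928 to 986 in *rve8* + DEX, and 655 to 872 in the mock libraries.

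Cold and ABA response genes included 6 of 19 higher and 1 lower, against 1.89% and 2.32% of all genes. *KIN1*, a cold- and ABA-induced gene, had 61.1, 65.0 and 52.1 CPM against 17.0, 15.1 and 25.1 CPM (3.1-fold, adjusted p = 3.2e-04). The mock libraries had 70.2, 61.2 and 66.2 and 55.8, 63.7 and 75.4 CPM, so the *rve8* + DEX libraries were the ones that lay apart, low. *COR15A*, a chloroplast cold protein, showed another order, with 19.1, 22.4 and 18.6 CPM against 9.79, 7.98 and 9.56 CPM with DEX (2.2-fold) and 37.4, 31.8 and 22.9 against 7.76, 10.0 and 8.96 CPM with mock. *COR15B* was 2.0-fold higher, *COR413-PM1*, *LTI30* and *LTI78* were higher by log2 0.47, 0.56 and 0.68, and *GOLS1*, a galactinol synthase, was 1.62-fold lower. *CBF1*, *CBF2* and *CBF3* were below the filter. With mock 6 of the 19 were higher and none lower, against 1.31% and 0.416% of all genes. The list median was log2 0.09 with DEX and 0.40 with mock. Its summed level was 1034 to 1076 CPM in *RVE8:GR* + DEX and 797 to 921 in *rve8* + DEX. With mock the sums were 1116 to 1161 CPM in *RVE8:GR* and 853 to 882 in *rve8*.

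Of 13 heat shock genes tested, 4 were lower in *RVE8:GR* + DEX and none higher, against 2.32% and 1.89% of all genes. The list median was log2 -1.0. In summed level the *rve8* + DEX libraries stood above every other library. *HSP101* had 33.0, 28.5 and 30.6 CPM against 86.1, 53.7 and 61.1 CPM (2.18-fold lower, adjusted p = 7.0e-04). *HSP70*, a cytosolic chaperone, had 178, 150.1 and 162 CPM against 382, 307 and 294 CPM (2.01-fold lower). *HSFA2*, a heat shock factor, was 2.04-fold lower and *HSP90.1* had a log2 fold change of -0.92. The call of *HSFA2* was lost without *RVE8:GR* + DEX replicate 2 or 3 (adjusted p = 0.0116 and 0.0103), and that of *HSP101* in a fit of these 6 libraries alone. The summed level of the list was 342 to 383 CPM in *RVE8:GR* + DEX, 331 to 441 in *RVE8:GR* + mock and 319 to 380 in *rve8* + mock, but 610 to 782 in *rve8* + DEX. The small heat shock proteins *HSP17.6A*, *HSP17.4* and *HSP23.6-MITO* had log2 fold changes of -1.43, -1.26 and -1.79 and were not called.

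**Figure D2:**
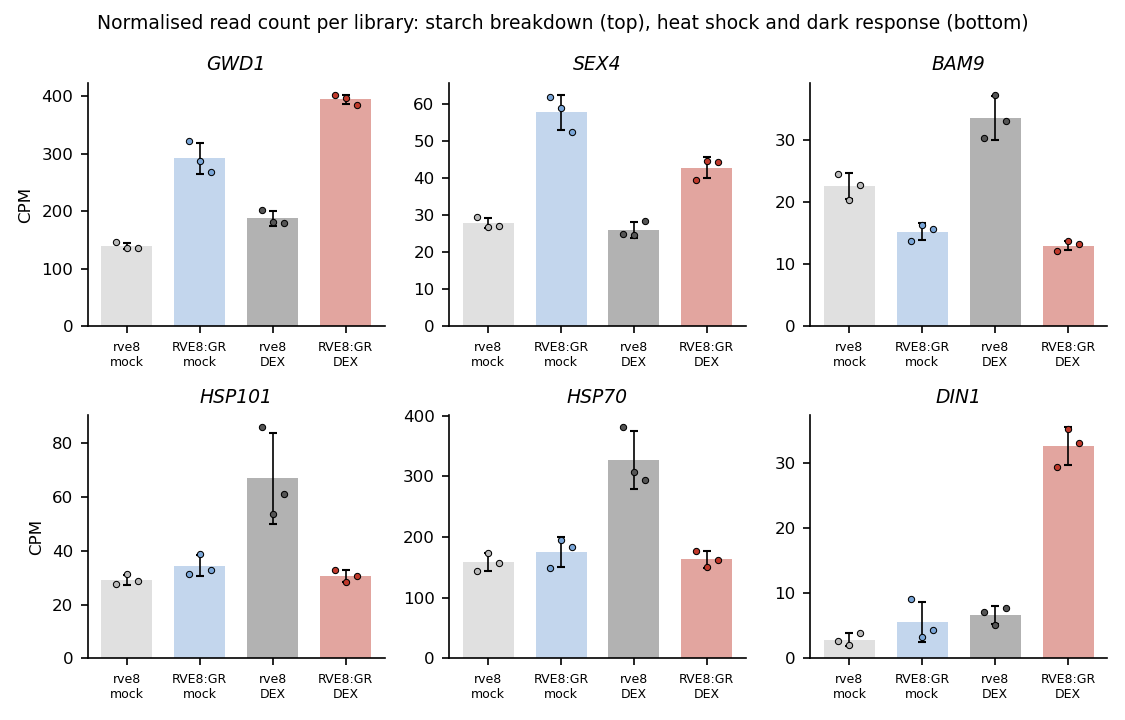
Normalised read count (CPM) of 3 starch breakdown genes, 2 heat shock genes and *DIN1* in the 12 libraries, with means, SD and single libraries. *GWD1* and *SEX4* are higher in *RVE8:GR* with DEX and with mock, while *HSP101* and *HSP70* are highest in *rve8* + DEX and *DIN1* in *RVE8:GR* + DEX.

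Chlorophyll synthesis held 1 higher gene and 4 lower genes among 13, against 1.89% and 2.32% of all genes. *HEMA1*, a first step of tetrapyrrole synthesis, had 164, 175 and 176 CPM against 226, 267 and 243 CPM (1.43-fold lower, adjusted p = 2.9e-05). *CAO*, *GUN4* and *CHLH* were lower, with log2 fold changes of -0.51, -0.44 and -0.41, and *PORB* was 1.22-fold higher, with 585, 604 and 606 CPM against 516, 488 and 463 CPM. Of 21 light-harvesting genes only *LHCB2.4* was called, 1.55-fold lower, although 17 had a negative fold change. The list median was log2 -0.10.

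Secondary metabolism and defence lists had few called members, and a count of 1 in a list of this size, as in the light-harvesting list, is no result about the list beside the 1.89% and 2.32% called over all genes. Early flavonoid genes had 4 of 13 lower and none higher, with *CHIL*, a chalcone isomerase-like protein, at 28.4, 28.1 and 28.4 CPM against 40.5, 41.1 and 47.5 CPM (1.52-fold lower). Among 16 anthocyanin genes *MYBL2*, a repressor of the pathway, was 1.89-fold higher and *UGT78D2* 1.69-fold lower. Of 24 aliphatic glucosinolate genes *MAM1* was higher (log2 0.28) and *MYB29*, a regulator of the pathway, lower (log2 -0.44), and of 10 indolic glucosinolate genes none was called, the most abundant, *GSTF9*, having log2 0.15 ± 0.07. Of 17 salicylic acid genes *PAD4* and *WRKY46* were lower (log2 -0.61 and -1.06). Of 25 jasmonate genes *VSP1* was 2.74-fold higher, with 103, 144 and 107 CPM against 36.2, 43.9 and 48.8 CPM, a call lost when any of the 6 libraries was left out (adjusted p up to 0.0246), and of 12 auxin genes *IAA2* was 1.32-fold lower. Of 3 ferredoxin-domain chloroplast J proteins *DJC76* was higher, as given next, and *DJC82* and *DJC77* were not called.

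**Figure D3:**
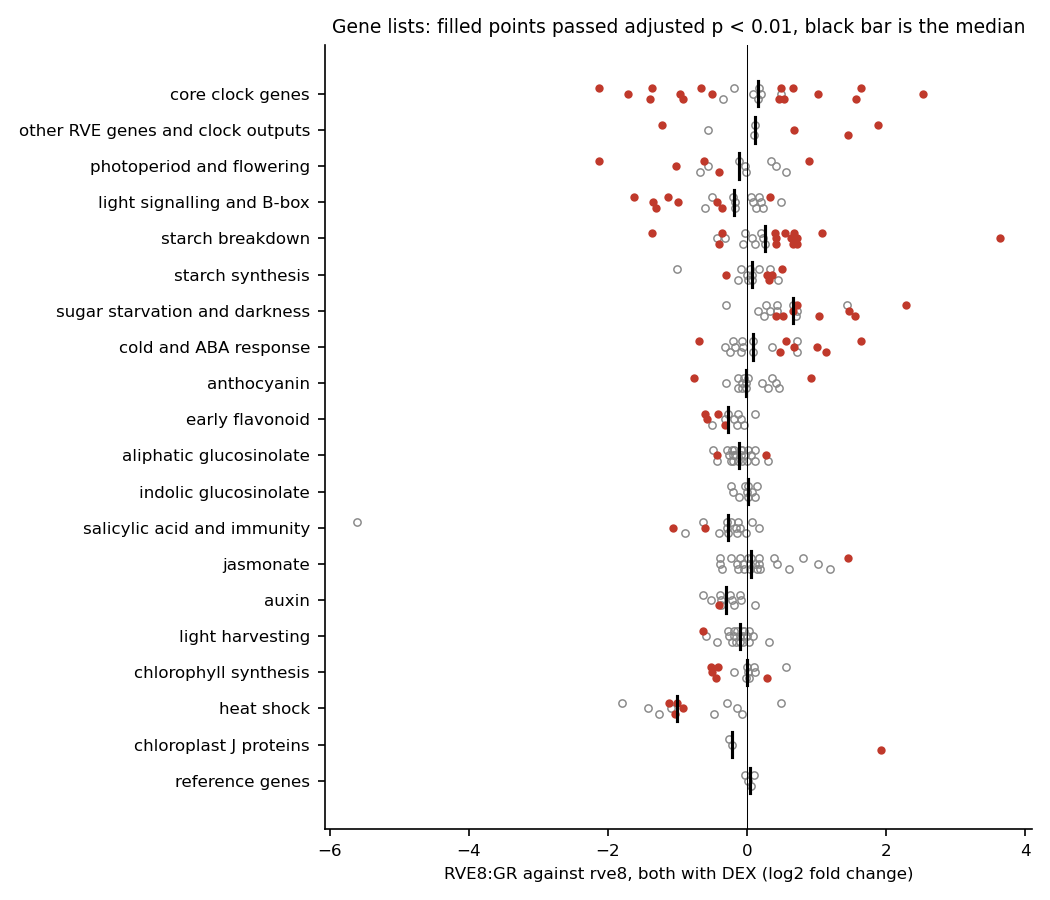
Log2 fold change with DEX of every tested member of each list, filled where called, with the list median as a black bar. The clock list holds 16 called members and the starch breakdown list 14, against 4.22% of all genes tested. The median of heat shock genes is log2 -1.0.

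Among called genes with a mean of at least 5 CPM over the 6 libraries and groups that did not overlap, 4 of the 10 largest increases, *DIN1*, *COR27*, *FKF1* and *KIN1*, are described above. *BAM5* and *RVE8*, with larger increases, lie below that mean. *DJC76*, a chloroplast J protein with 2 long EE sites, had 47.5, 38.7 and 41.2 CPM against 12.8, 10.12 and 10.6 CPM (3.8-fold, adjusted p = 9.2e-10). AT1G07050, of the CCT motif family, had 34.0, 31.3 and 27.5 CPM against 8.53, 6.07 and 6.16 CPM (4.47-fold, adjusted p = 1.2e-07). With mock it had 11.3, 9.02 and 11.7 CPM in *RVE8:GR* and 8.47, 7.57 and 5.04 CPM in *rve8*. AT2G16005, an MD-2-related lipid recognition protein, had 48.2, 45.4 and 63.0 CPM against 8.97, 16.5 and 16.2 CPM (3.74-fold). With mock it had 32.0, 28.1 and 36.8 CPM in *RVE8:GR* and 40.2, 43.7 and 54.7 CPM in *rve8*. The *rve8* + DEX libraries were thus the ones that lay apart, low, and *RVE8:GR* + DEX overlapped *rve8* + mock. *PDF2.1*, of the knottin family, was 3.01-fold higher and *NUDT8*, a nudix hydrolase, 3.02-fold. AT3G62550, an adenine nucleotide alpha hydrolase-like protein, had 152, 161 and 177 CPM against 55.5, 52.2 and 54.9 CPM (3.01-fold). On the lower side, besides *LHY*, *CCA1*, *COL2* and *BBX16*, AT2G27420, a cysteine proteinase, had 5.29, 2.32 and 5.33 CPM against 15.4, 18.0 and 17.58 CPM (3.97-fold lower). AT1G64500, a glutaredoxin, had 24.9, 19.8 and 27.0 CPM against 67.6, 83.9 and 71.0 CPM (3.11-fold lower, adjusted p = 9.1e-09). AT2G04050 (a MATE efflux protein), AT3G09450 (fusaric acid resistance family), AT5G42760 (a leucine carboxyl methyltransferase) and *cPT4* (undecaprenyl pyrophosphate synthetase family) were 3.34-fold, 3.16-fold, 3.07-fold and 2.93-fold lower.

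The line difference was also measured without steroid. With mock, 261 genes were higher in *RVE8:GR* (1.31%) and 83 lower (0.416%), together 1.72%, and these libraries are separate from those with DEX. Of the genes higher with DEX, 108 were also higher with mock, 28.6% of 378 and 41.4% of 261. Of those lower with DEX, 19 were also lower with mock, 4.09% of 464 and 22.9% of 83, while 3 of the higher and 5 of the lower genes were called in the opposite direction with mock. The counts with mock rest on few libraries: when any mock library other than *RVE8:GR* + mock replicate 3 was left out, the 261, the 83 or both moved by over 1.5 times, within 113 to 396 and 25 to 224, and the shares of overlap were not recomputed. *FKF1* (log2 1.24 with mock), *DJC76* (1.16), *NUDT8* (1.36), *PRR5* (0.60) and AT5G61290 (0.86), a flavin-binding monooxygenase, were higher in both, and *LHY* (-1.0), *COL2* (-0.99), *CCA1* (-0.54), AT5G42760 (-0.76) and AT1G64500 (-0.55) lower in both. The test of the difference between the 2 line differences, which uses the DEX libraries again, called 48 genes as more positive with DEX (0.24%) and 189 as more negative (0.947%), together 1.19%. The 189 fell to between 97 and 124 when any *RVE8:GR* + DEX library, *rve8* + DEX replicate 1 or 2 or replicate 2 of either mock group was left out, and the 48 to 29 and 31 without replicate 1 of *RVE8:GR* + DEX and of *rve8* + DEX. *LNK3* (-1.16), *BBX16* (-1.89) and *COR27* (1.45) were among them, whereas for *GWD1* it gave log2 0.01 ± 0.10 (adjusted p = 0.99) and for *FKF1* 0.40 ± 0.19 (adjusted p = 0.33).

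**Figure D4:**
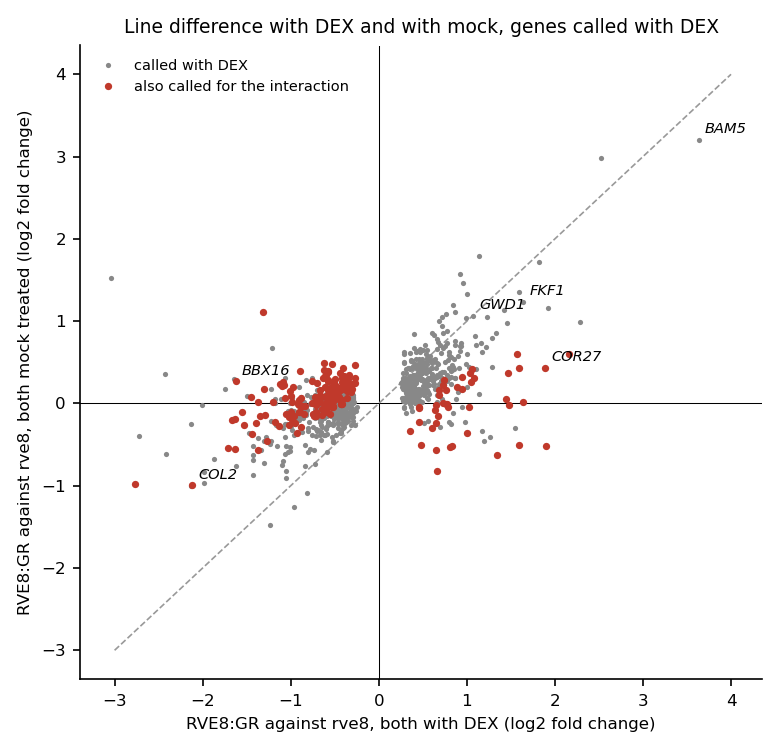
Line difference with DEX against line difference with mock (log2 fold change) for the genes called with DEX, with genes also called for the interaction in red and equality as a dashed line. *GWD1* lies close to the line, *BBX16* near 0 on the mock axis, and 1 gene lies beyond the axes.

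The EE was present in the promoters of most genes higher in *RVE8:GR* + DEX. The short EE, AAATATCT, was found within 1500 bp upstream of the start codon on either strand in 62.7% (234 of 373, 95% Wilson interval 57.7 to 67.5%) of the higher genes. In the lower genes the share was 18.0% (83 of 461, 95% Wilson interval 14.8 to 21.8%), close to that of genes not called, 19.7% (3647 of 18488, 95% Wilson interval 19.2 to 20.3%), and to 20.5% of all genes tested. The long EE, AAAATATCT, was found in 41.6% (155 of 373, 95% Wilson interval 36.7 to 46.6%), 7.38% (34 of 461, 95% Wilson interval 5.33 to 10.13%) and 9.23% (1706 of 18488, 95% Wilson interval 8.82 to 9.65%), with 9.81% of all genes tested. Among genes higher by at least 2-fold the short EE was in 75.6% (34 of 45, 95% Wilson interval 61.3 to 85.8%). It was in 69.2% (74 of 107, 95% Wilson interval 59.9 to 77.1%) of the genes also higher with mock. In those not called higher with mock the share was 60.2% (160 of 266, 95% Wilson interval 54.2 to 65.8%). Of the higher genes also called as more positive with DEX than with mock, 81.0% had it (34 of 42, 95% Wilson interval 66.7 to 90.0%). In the higher genes without that interaction call the share was 60.4% (200 of 331, 95% Wilson interval 55.1 to 65.5%). The median log2 fold change was 0.55 for higher genes with a short EE and 0.48 for those without. A match is a string of letters and not a site shown to be bound. The lower clock genes *LNK1*, *LNK2*, *LNK3*, *LNK4*, *CCA1*, *LHY* and *RVE4* have no short EE within 1500 bp, and *PRR9* has 1, printed above.

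**Figure D5:**
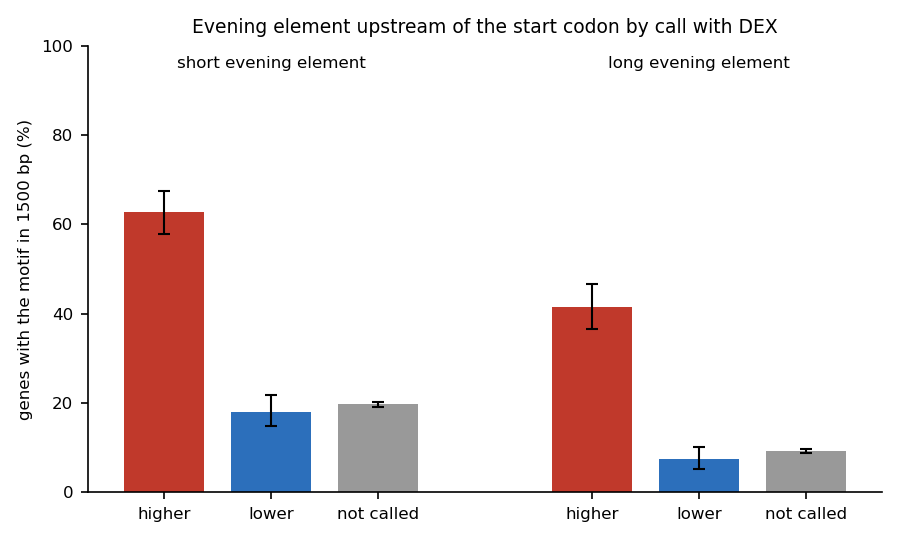
Percent of genes with a short or long EE in the 1500 bp upstream of the start codon, for genes called higher, called lower and not called with DEX, with 95% Wilson intervals. The higher genes carry the short EE in 62.7% and the lower genes in 18.0%.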

How the data were processed

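RNA-seq counts of 12 libraries were used, 3 for each line and treatment. The authors deposited raw counts per gene model, made by aligning strand-specific reads with BWA to representative TAIR 10 cDNA models and counting the reverse strand, with lanes merged in Samtools. Empty entries, 33457 in all, were read as a count of 0. How reads matching several models were counted is not given in the sources used here.

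Genes reaching 1 CPM in 3 or more libraries were tested with edgeR 4.0.16 (quasi-likelihood, robust, TMM factors), all 4 groups fitted together, called at an adjusted p (Benjamini-Hochberg) under 0.01. The labels' 3 replicates a group are compared, and an exact permutation test of 3 against 3 cannot go below p = 0.1, so no such test was run for single genes. Gene lists and members were chosen with earlier results of these data known. Named were all clock genes, the 10 largest increases and decreases with groups apart and a mean over 6 libraries of 5 CPM or more, the 3 largest called members in each direction of each other list (its most abundant member where none was called), the 5 largest interactions and the 5 largest shared with mock, and reference genes. Other members are given as values. Positions and symbols come from TAIR10.1 (25259 models matched by name, 631 by locus, 355 not matched). Promoters are 1500 bp upstream of the start codon, available for 23808 models. Versions were R 4.3.3 and Python 3.11.15. Code was tested on simulated data, and 20 alternatives were tried.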

Additional observations from a re-analysis of the deposited data

Results flagged for a closer look

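For 38 of the named genes the line difference with DEX was not the same as the line difference with mock, by the interaction term of the fit at an adjusted p under 0.01. The values are the line difference with DEX minus that with mock on the log2 scale, and the DEX libraries enter both this test and the calls with DEX.

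It was positive for 12 genes. Clock genes and outputs were *PRR5* (0.97), *ELF4* (0.68), *COR27* (1.45), AT4G33980 (1.4) and *COL9* (0.68). *DRM2* (1.09) and *KIN1* (1.61) are dark- and cold-induced genes. The others were AT2G16005 (2.42), *PDF2.1* (2.1), AT1G07050 (1.56), AT1G30280, a DnaJ-domain protein (1.5), and AT3G62550 (1.16). *PDF2.1* had 2.22, 3.11 and 4.0 CPM in *RVE8:GR* + mock and 2.94, 4.12 and 6.11 CPM in *rve8* + mock, against 10.2, 12.8 and 12.7 and 3.36, 3.93 and 4.51 CPM with DEX, and its log2 line difference was -0.51 with mock and 1.59 with DEX.

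It was negative for 26 genes. Among clock and light genes these were *CCA1* (-1.17), *LNK1* (-0.55), *LNK2* (-0.56), *LNK3* (-1.16), *PRR9* (-1.38), *COL1* (-0.75), *COL2* (-1.13), *CDF1* (-0.81), *BBX16* (-1.89) and *BBX18* (-1.19). The chlorophyll and light-harvesting genes were *HEMA1* (-0.76), *GUN4* (-0.60), *CAO* (-0.64) and *LHCB2.4* (-0.94). Heat shock genes were *HSP70* (-1.15), *HSP101* (-1.37) and AT1G59860, an HSP20-like chaperone (-1.48). *BAM1* (-0.58) and *BAM9* (-0.80) are beta-amylases, *CHIL* (-0.59) and *UGT78D2* (-1.03) flavonoid genes, and *MYB29* (-0.62) a glucosinolate regulator. The rest were *cPT4* (-1.44), AT2G18193, a P-loop hydrolase (-1.53), AT1G64500 (-1.08) and AT3G09450 (-1.47).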

How the results depend on the processing

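No called gene among those named changed direction under the 20 alternatives, while *PP2AA3* and *ACT2*, not called, crossed 0 (log2 -0.02 to 0.06 and -0.07 to 0.02). Over the 92 named genes, 1736 values kept their side of the threshold and 102 lost it. Counts of called genes moved with the threshold and the tool. At an adjusted p under 0.05 there were 661 higher and 797 lower genes with DEX, 695 and 374 with mock and 132 and 428 for the interaction. DESeq2 gave 454 and 217 with mock and 89 and 349 for the interaction, against 455 and 605 with DEX. The edgeR exact test gave 523 and 671 with DEX and 510 and 272 with mock. A fit of only the groups compared gave 477 and 554 with DEX and 169 and 46 with mock. Genes lower with mock numbered 148 without TMM factors, 133 without the filter and 132 with the replicate block. Leaving out each library gave 219 to 438 higher and 310 to 514 lower genes with DEX, 113 to 396 and 25 to 224 with mock, and 29 to 62 and 97 to 255 for the interaction. In a promoter of 500 bp the short EE was in 43.4% of higher and 5.42% of lower genes, against 8.21% of all genes tested. The long EE was in 27.3% and 2.82% there, against 3.98% of all genes tested.

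Same-numbered *RVE8:GR* + DEX and *rve8* + DEX libraries correlated by 0.033, 0.107 and 0.176 in their deviations over 15587 genes. Those of unlike number correlated by -0.153 to 0.045. Whether the numbers mark samples handled together cannot be told from these correlations. The fit with the replicate block gave 412 higher and 500 lower genes with DEX. Libraries 2 and 3 of *RVE8:GR* + DEX correlated best with their own number, and library 1 with number 2. The block ended the calls of *BAM5*, *VSP1*, *ISA2* and AT2G04050 and of no other named gene. Calls near the threshold were the least stable. *ISA2*, *SS2*, *MAM1* and *PORB* were lost when any of the 6 DEX libraries or either of 2 mock libraries was left out (adjusted p up to 0.0539, 0.048, 0.0649 and 0.0545), *BCAT2* in 7 such fits and *VSP1* in 6. *BAM5* was lost when any *rve8* library or *RVE8:GR* + mock replicate 3 was left out (up to 0.037). *PHYA* and *PAD4* were lost when any *rve8* + DEX library or *RVE8:GR* + DEX replicate 1 or 2 was left out (up to 0.0216 and 0.0391), and *LHCB2.4* without replicate 1 or 2 of either DEX group (up to 0.0199). AT2G04050 (up to 0.0225), *ELF4* (0.0415), *BAM3* (0.0279), *FLS1* (0.0161), *CDF1* (0.013), *WRKY46* (0.0183) and *HSFA2* (0.0116) were each lost in 2 to 4 fits that left out a library, and *DIN1*, *SBE2.1* and *IAA2* without *rve8* + DEX replicate 2 (0.0101, 0.0117 and 0.0121). The fit of only the groups compared ended the calls of *HSP101*, AT2G16005 and *BAM5*, the exact test those of *ISA2*, *SS2* and *MAM1*, scaling without TMM factors that of *SS2*, and no filter that of AT2G04050. With 3 libraries a group, the smallest differences called were near 1.2-fold. This is no limit for genes in general, since larger differences, such as those of *GBSS1* and *HSP17.4*, were not called.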

Other observations

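Outside the rule for named genes, AT2G01422, an annotated non-coding RNA, was chosen after its values were seen. It had 55, 19 and 39 counts in *RVE8:GR* + DEX and 1, 0 and 0 in *rve8* + DEX, and 25, 32 and 34 in *RVE8:GR* + mock and 2, 1 and 10 in *rve8* + mock. All 6 *RVE8:GR* libraries were above all 6 *rve8* libraries, whatever the treatment.

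*PR2*, a pathogenesis-related gene, varied within groups. It had 3.85, 1.68 and 14.6 CPM in *rve8* + DEX, 0.0468, 0.232 and 0.115 in *RVE8:GR* + DEX and 0.246, 0.0518 and 9.88 in *RVE8:GR* + mock, where 1 library stood apart, and was not called with DEX (adjusted p = 0.16).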
